A study of Mus musculus with 2 samples.

Results

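TRBV5 is a variable gene of the mouse T cell receptor (TCR) beta locus. It was followed here through every productive TRB chain that was annotated with it in thymic CD4 single positive (SP) T cells. Its members were all TRB contigs whose V gene call was TRBV5, 680 of the 9322 TRB chains in the study. They comprised 309 of 4141 chains in the library of WT mice and 371 of 5181 chains in the library of Btla-/- mice. Both groups were C57BL/6 (B6) mice aged 8 to 12 weeks, and the Btla-/- mice lacked BTLA, a co-inhibitory receptor of lymphocytes, from the germline. Naive CD4 T cells were enriched from thymocytes by negative selection, and their TCR transcripts were amplified and read cell by cell (10× Genomics V(D)J). The comparison asks whether loss of BTLA goes with a different repertoire in newly formed CD4 T cells. Each genotype had 1 library, the number of mice behind a library is not given in the sources used here, and genotype and library cannot be told apart. No test between genotypes was therefore made, and no difference given here has a replicate check. Intervals in brackets are exact (Clopper-Pearson) 95% binomial intervals, which cover counting error only.

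A TCR beta chain is built in the thymus by joining a V, a D and a J segment. The RAG recombinase cuts each segment at a recombination signal made of a heptamer, a spacer and a nonamer. The ends are then trimmed, and bases are added before they are joined. The joint encodes the third complementarity-determining region (CDR3), which contacts the peptide held by an MHC molecule, whereas CDR1 and CDR2 are encoded by the V gene itself. In the older nomenclature TRBV5 is Vβ1, and it is not the Vβ5 detected on OT-II transgenic T cells. Each D segment is followed by its own cluster of J genes and its own constant gene, TRBC1 after the TRBJ1 cluster and TRBC2 after the TRBJ2 cluster.

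TRBV5 (ENSMUSG00000076465.2) lies on the plus strand at chr6:41062332-41062803 of GRCm38, with exons at chr6:41062332-41062407 and chr6:41062512-41062803. Its upstream neighbour TRBV4 ends 2445 bases before it, its downstream neighbour TRBV6, an annotated pseudogene, begins 4075 bases after it, and TRBD1 lies 470397 bases further on. No contig analysed here was called TRBV4 or TRBV6. TRBV4 is annotated as a V gene and not as a pseudogene. Whether its absence comes from the annotation reference could not be settled, so it is not read as lack of use. The end of the second exon is shown with the recombination signal because it sets the start of the CDR3. Capitals mark the 17 coding bases from the conserved cysteine to the end of the exon, and the lower case after them is the heptamer, a spacer of 23 bases and the nonamer. TRBV2 is shown beside it, and was chosen after its values were seen, because of the 19 V genes whose germline end could be read it alone shares these 17 bases.
TRBV5 chr6:41062767-41062842, plus strand: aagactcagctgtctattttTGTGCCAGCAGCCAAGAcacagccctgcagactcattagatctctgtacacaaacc
TRBV2 chr6:41047959-41048034, plus strand: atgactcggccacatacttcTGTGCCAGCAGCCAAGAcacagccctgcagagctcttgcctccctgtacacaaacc
The heptamers and nonamers of the pair were also identical, while the spacers matched at 15 of 23 bases and the 20 bases before the CDR3 at 12 of 20.

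The contigs called TRBV5 were set beside the germline sequence of the gene. From framework 1 to framework 3 each chain carried 267 bases before the CDR3, and these equalled the GRCm38 germline sequence in 309 of 309 WT chains and in 371 of 371 Btla-/- chains. The calls had themselves been made against a GRCm38 reference, and no other V gene was compared. The match is therefore no independent check of the label. The germline loops that define the gene product are given next.
TRBV5 CDR1, chr6:41062595-41062609: ctgggacataatgct
TRBV5 CDR2, chr6:41062661-41062678: tacaatcttaaacagttg

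TRBV5 was among the most used V genes in both libraries. It accounted for 7.46% of WT TRB chains [6.68 to 8.30%] and 7.16% of Btla-/- TRB chains [6.47 to 7.90%], a ratio of 0.96. In WT it was second, behind TRBV12-2+TRBV13-2, a joint call of the annotation beside the single calls of these genes, at 7.92% and ahead of TRBV19 at 7.196%. In the Btla-/- library the joint call was again first at 7.82%, TRBV5 and TRBV12-1 each had 371 chains, and TRBV13-1 followed at 6.70%. In each library the interval of TRBV5 overlapped those of the neighbours just named for it. Among the 18 V gene calls with at least 100 chains in each library, the ratio of Btla-/- to WT share ran from 0.77 to 1.29, and TRBV5 ranked 11th from the highest. None of the 18 differed by 1.5-fold or more between the libraries (0%), the size used throughout to single out a difference.

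**Figure D1:**
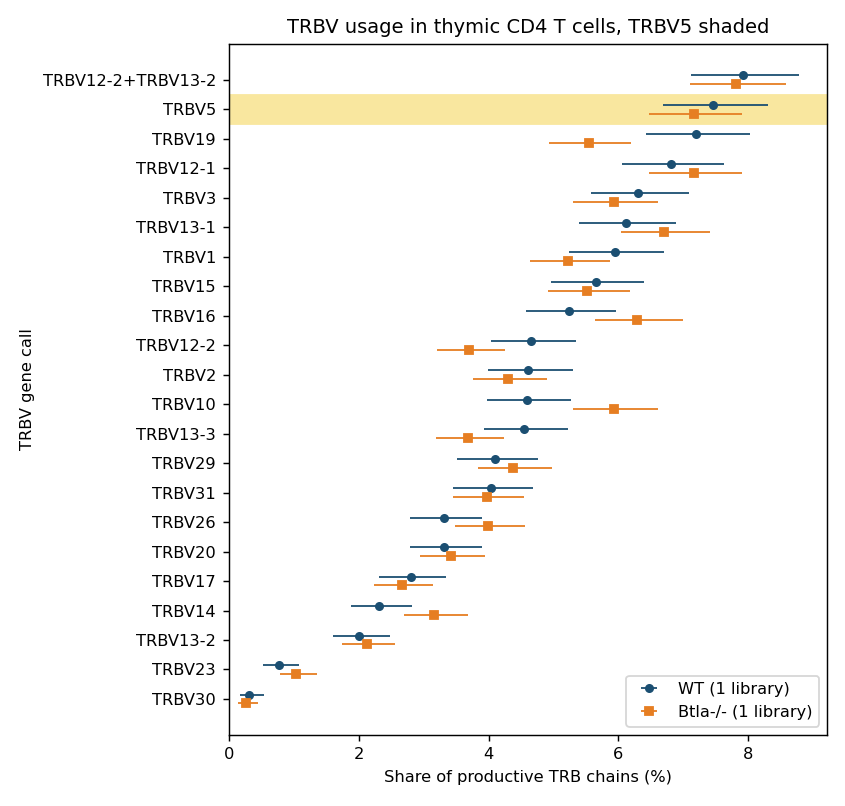
Share of productive TRB chains (%) held by each TRBV gene call in the WT library (circles) and the Btla-/- library (squares), with exact 95% binomial intervals, 1 library per genotype. TRBV5 (shaded) stands second in WT at 7.46% and level with TRBV12-1 in Btla-/- at 7.16%.

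The CDR3 of TRBV5 chains most often began with the residues CASSQ, the reading of the germline end. CASSQ opened 213 of 309 WT chains (68.9% [63.4 to 74.1%]) and 242 of 371 Btla-/- chains (65.2% [60.1 to 70.1%]). Among chains of all other V genes the same start was found in 4.96% in WT and 4.64% in Btla-/-. Most of these were TRBV2 chains, 150 of 190 in WT and 168 of 223 in Btla-/-. TRBV2, which has the same germline end, began with CASSQ in 78.5% of its WT chains and 75.3% of its Btla-/- chains. These shares were above those of TRBV5, with overlapping intervals in each library. The first 12 germline bases, which encode CASS, were intact in 305 of 309 WT chains and 362 of 371 Btla-/- chains. Variation therefore began at the fifth codon, which is CAA (glutamine) in the germline.

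After glutamine, proline was the residue found most often at that position. CASSP opened 17.8% of WT TRBV5 chains [13.7 to 22.5%] and 21.3% of Btla-/- chains [17.2 to 25.8%], against 9.73% and 9.67% of the chains of other V genes. It was also the most frequent start of TRBV10, with 21.6% of its WT and 17.9% of its Btla-/- chains. A high CASSP share was thus not particular to TRBV5. CASSR opened 3.24% of WT and 5.66% of Btla-/- chains, CASSH 4.85% and 1.89%, and CASSL 1.29% and 2.70%. For each of these rarer starts the intervals of the libraries overlapped. Of the chains without glutamine at this position, 84 of 95 in WT (88.4%) and 118 of 127 in Btla-/- (92.9%) still had C, the germline base, at the start of the codon. Of the WT chains with glutamine at this position, 197 of 214 used the germline CAA, as did 236 of 244 in Btla-/-, and the rest used CAG. Of those with proline, 28 of 56 used CCC in WT and 50 of 79 in Btla-/-.

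The number of germline V bases kept in the joint, counted as the run of bases at the start of the CDR3 that equals the germline, was unevenly spread. An added base that happens to equal the germline is counted as kept. All 17 bases were kept in 36.9% of WT TRBV5 chains [31.5 to 42.5%] and 36.7% of Btla-/- chains [31.7 to 41.8%]. The next most frequent state was 13 bases, which ends after the first C of the fifth codon, with 21.7% in WT [17.2 to 26.7%] and 28.3% in Btla-/- [23.8 to 33.2%]. Joints that kept 14 bases made up 10.0% in WT [6.92 to 13.9%] and 3.50% in Btla-/- [1.88 to 5.92%], and those that kept 12 made up 3.24% and 2.16%. Of all the states compared, the 14-base state alone had library intervals that did not overlap. It was picked out by its values, and how often counting error gives such a gap among so many states was not estimated. The 14-base share was not recomputed under other settings, and a difference between the genotypes was not tested. Of the chains that kept 13 bases, 54 of 67 in WT and 75 of 105 in Btla-/- read proline at the fifth position. The others read arginine (9 and 20 chains) or leucine (4 and 10). The genetic code allows no other residue here, because the base after the kept C is not the germline A.

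Joints that read a common residue at position 5 of the CDR3 are shown here, with the first such contig in the WT table for glutamine, proline and histidine and the first in the Btla-/- table for arginine and leucine. Lower case marks bases equal to the germline V end on the left and the germline J end on the right, and capitals mark the bases between them, which come from the D segment or from added nucleotides.
WT CASSQ, TRBJ2-7: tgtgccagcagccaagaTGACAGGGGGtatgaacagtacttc
WT CASSP, TRBJ2-3: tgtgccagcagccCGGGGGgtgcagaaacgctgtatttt
WT CASSH, TRBJ2-7: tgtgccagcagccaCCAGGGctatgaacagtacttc
Btla-/- CASSR, TRBJ2-3: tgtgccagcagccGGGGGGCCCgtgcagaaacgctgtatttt
Btla-/- CASSL, TRBJ2-1: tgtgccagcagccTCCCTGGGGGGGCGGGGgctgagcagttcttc

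TRBV2, which ends in the same 17 bases, the same heptamer and the same nonamer, kept a different number of them in these data. All 17 bases were kept in 49.7% of 191 WT TRBV2 chains [42.4 to 57.0%] and in 49.8% of 223 Btla-/- chains [43.0 to 56.5%], above the TRBV5 values in both libraries. The 13-base state was found in 11.0% of WT TRBV2 chains [6.94 to 16.3%] and 14.8% of Btla-/- chains [10.4 to 20.2%], below TRBV5 in both. CASSP accordingly opened 5.76% of WT TRBV2 chains [2.91 to 10.1%] and 8.97% of Btla-/- chains [5.56 to 13.5%]. For the 13-base state and for CASSP the intervals of the V genes did not overlap within either library. A proline codon after an intact CASS stretch ends the germline run at 13 bases, so these are not separate results. For the 17-base state they did not overlap in Btla-/- and met narrowly in WT. TRBV2 contigs rested on fewer molecules, with a median of 7 unique molecular identifiers (UMIs) in WT and 6 in Btla-/-, against 15 and 11 for TRBV5. Among contigs with at least 3 UMIs, CASSP opened 17.9% of WT TRBV5 and 5.11% of WT TRBV2 chains, and 21.3% and 9.27% in Btla-/-.

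**Figure D2:**
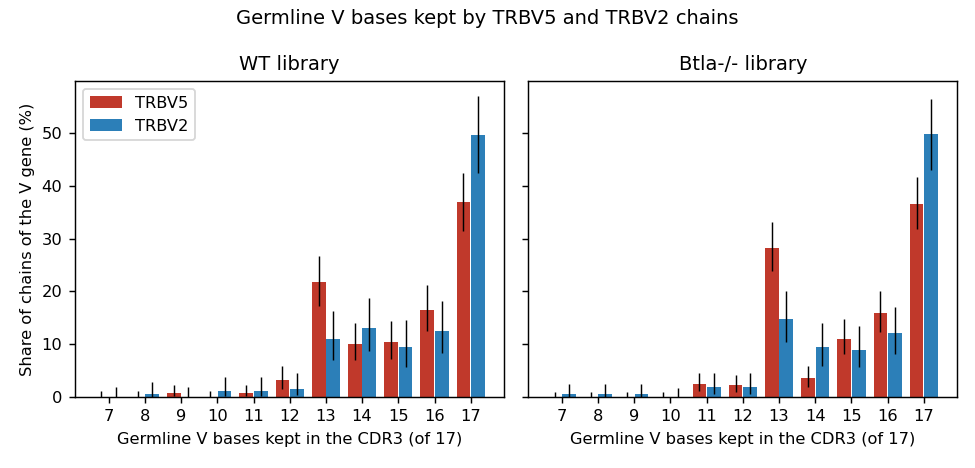
Share of chains of each V gene (%) by the number of its 17 germline CDR3 bases that were kept, for TRBV5 and TRBV2 in the WT (left) and Btla-/- (right) libraries. Bars are shares and lines exact 95% binomial intervals. Both genes peak at 17 bases, and the share at 13 bases is 21.7% in WT and 28.3% in Btla-/- for TRBV5, above TRBV2 at 11.0% and 14.8%.

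TRBV5 chains had long CDR3s. The mean length was 14.80 residues (SD 1.45 over 309 chains) in WT and 14.74 residues (SD 1.48 over 371 chains) in Btla-/-. Chains of other V genes had means of 14.16 residues (SD 1.51) and 14.23 residues (SD 1.51), so TRBV5 was longer by 0.64 residues in WT and 0.51 in Btla-/-. The most frequent length was 15 residues, with 30.1% of WT and 27.8% of Btla-/- TRBV5 chains, whereas 14 residues was the most frequent length for other V genes, with 29.2% and 29.4%. CDR3s of 16 or more residues made up 30.1% of WT TRBV5 chains [25.03 to 35.55%] and 29.6% of Btla-/- chains [25.05 to 34.58%], against 17.1% [15.96 to 18.38%] and 18.6% [17.5 to 19.7%] of other chains. Among the 18 V gene calls with at least 100 chains, TRBV5 had the second longest mean in each library, after TRBV2 at 14.91 residues in WT and after TRBV1 at 14.77 in Btla-/-. Individual TRBV5 CDR3s spanned 11 to 19 residues in WT and 9 to 20 in Btla-/-.

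The parts of the joint were counted separately over the chains whose V and J ends could be read. TRBV5 chains kept a mean of 15.2 germline V bases in WT (SD 1.79) and 15.1 in Btla-/- (SD 1.83), against 13.5 in both libraries for other V genes, whose germline ends were 16.1 bases long on average. The excess was 1.75 bases in WT and 1.63 in Btla-/-. The segment between the V and J bases was 10.8 bases long in both libraries, 0.34 bases longer than in other V genes in WT and 0.14 bases longer in Btla-/-. The J bases kept, 18.4 in WT and 18.3 in Btla-/-, differed from those of other V genes by -0.11 and -0.18 bases. The excess over other V genes therefore lay mainly in the V bases.

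**Figure D3:**
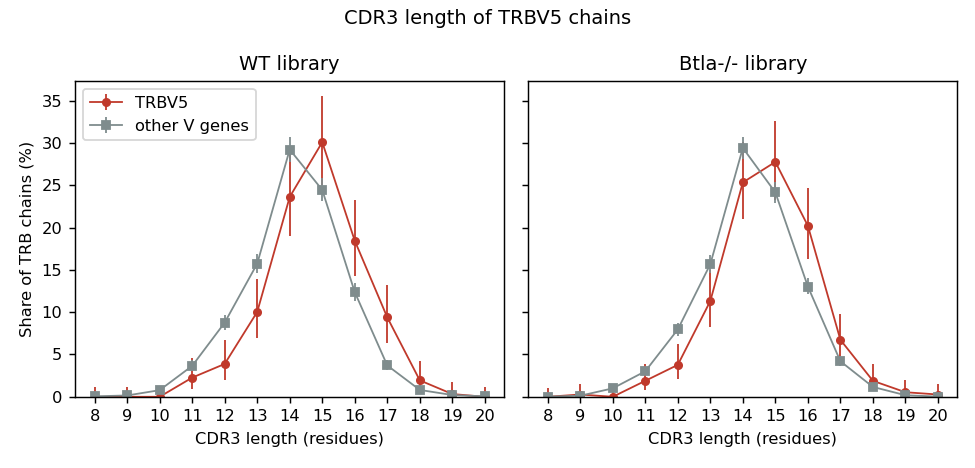
Distribution of CDR3 length (residues) as a share of TRB chains (%), for TRBV5 and for all other V genes, in the WT (left) and Btla-/- (right) libraries with exact 95% binomial intervals. The TRBV5 curve peaks at 15 residues and the curve of other V genes at 14 in both libraries.

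Within TRBV5, length varied with the J gene. Mean lengths per TRBJ gene ran from 13.89 residues with TRBJ2-7 to 15.68 with TRBJ2-4 in WT, and from 13.92 with TRBJ2-7 to 15.47 with TRBJ2-4 in Btla-/-. TRBV5 chains were longer than other chains that used the same J gene for 12 of 12 J genes in WT and for 11 of 12 in Btla-/-, the exception being TRBJ2-1. Chains that began with CASSQ and chains that began with CASSP had like mean lengths, 14.89 and 14.82 residues in WT and 14.78 and 14.51 in Btla-/-. The segment between the V and J bases was longer in CASSP chains, with means of 12.8 bases against 10.1 in WT and 12.2 against 10.0 in Btla-/-. This follows largely from how the chains were grouped. A proline codon departs from the germline CAA at its second base, so CASSP chains match fewer V bases than CASSQ chains. At like lengths more bases are then left for the segment between.

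TRBV5 was joined to 12 TRBJ genes in both libraries, and TRBJ2-7 was the most frequent partner. TRBJ2-7 was found in 54 of 309 WT chains (17.5% [13.4 to 22.2%]) and 59 of 371 Btla-/- chains (15.9% [12.33 to 20.03%]). In WT it was followed by TRBJ2-5 (14.9%), TRBJ2-3 (12.0%) and TRBJ1-1 (11.3%), and in Btla-/- by TRBJ1-1 and TRBJ2-3 (11.3% each) and TRBJ2-5 (10.8%). TRBJ1-1 was joined to 35 WT chains [8.02 to 15.4%] and 42 Btla-/- chains [8.28 to 14.99%], which is 11.3% in both. The chains of other V genes used TRBJ1-1 in 12.0% in WT and 11.2% in Btla-/-, inside the TRBV5 intervals. TRBJ2-7 was also their most frequent J gene, with 15.8% in WT and 14.7% in Btla-/-, again inside the TRBV5 intervals. The germline CDR3 parts of the partners mentioned most are given for orientation.
TRBJ1-1, chr6:41533864-41533883: caaacacagaagtcttcttt
TRBJ2-1, chr6:41542754-41542775: taactatgctgagcagttcttc
TRBJ2-7, chr6:41543810-41543828: ctcctatgaacagtacttc

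In WT, 3 J partners of TRBV5 differed in share from the same J genes in other V genes by 1.5-fold or more. TRBJ2-1 was joined to 16 WT TRBV5 chains (5.18% [2.99 to 8.27%]) against 10.8% [9.86 to 11.9%] of other WT chains. In Btla-/- it was joined to 36 TRBV5 chains (9.70% [6.89 to 13.2%]) against 9.92% of other chains. TRBJ1-2 was joined to 10 WT TRBV5 chains (3.24% [1.56 to 5.87%]) against 6.71% [5.93 to 7.55%] of other chains, and in Btla-/- to 18 (4.85% [2.90 to 7.56%]) against 7.11%. TRBJ1-6 was joined to 19 WT TRBV5 chains (6.15% [3.74 to 9.44%]), 1.55 times the 3.97% of other chains, which lay inside that interval, and to 13 Btla-/- chains (3.50%), 0.98 times the share in other chains. These 3 of 12 J genes passed 1.5-fold in WT, where 23.1% of all pairs of a V and a J gene did so, and 0 of 12 passed it in Btla-/-, where 16.7% of pairs did. Between the libraries TRBJ2-1 differed by 1.87-fold and TRBJ1-6 by 0.57-fold within TRBV5. They were 2 of 12 J genes past 1.5-fold, where 28.2% of all pairs were, and for both the intervals of the libraries overlapped.

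**Figure D4:**
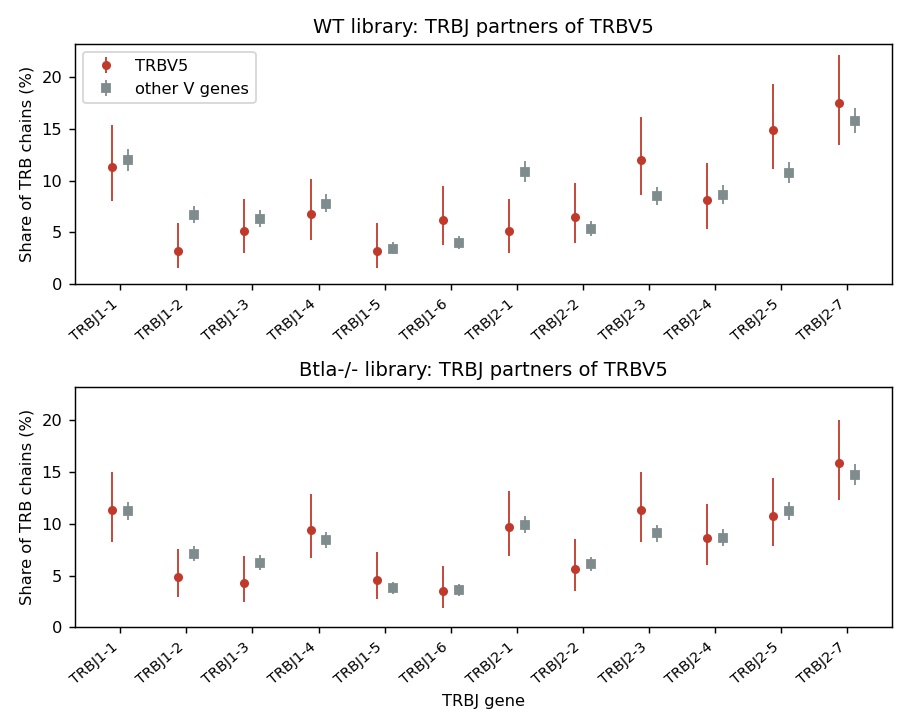
Share of TRB chains (%) joined to each TRBJ gene, for TRBV5 (circles) and for all other V genes (squares), in the WT (top) and Btla-/- (bottom) libraries, with exact 95% binomial intervals. TRBJ1-1 lies at 11.3% for TRBV5 in both panels, while TRBJ2-1 lies at 5.18% in WT and 9.70% in Btla-/-.

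By cluster, TRBJ2 genes were used in 64.1% of WT TRBV5 chains [58.5 to 69.4%] and 62.0% of Btla-/- chains [56.8 to 67.0%], against 59.9% and 59.7% of other chains. J and constant gene calls followed the order of the locus. Each of the 111 WT chains with a TRBJ1 gene carried TRBC1 and each of the 198 with a TRBJ2 gene carried TRBC2. In Btla-/- the counts were 140 of 141 with TRBC1, the remaining chain having no constant call, and 230 of 230 with TRBC2. A D gene was called in the minority of TRBV5 chains, TRBD1 in 15.5% and TRBD2 in 9.06% in WT, and TRBD1 in 15.6% and TRBD2 in 7.01% in Btla-/-. TRBD2, which lies downstream of the TRBJ1 cluster, was called in 0 of 111 WT chains with a TRBJ1 gene, which allows a share of up to 2.70% (3 counts of the total), and in 0 of 141 in Btla-/-, which allows up to 2.13%. With a TRBJ2 gene, TRBD1 and TRBD2 were called equally often in WT (28 chains each of 198) and nearly so in Btla-/- (25 and 26 of 230).

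The V genes whose TRBJ usage was nearest to that of TRBV5 were found by total variation distance over 12 J genes with both libraries joined, where 0 means equal usage and 1 none shared. They were the joint call TRBV12-2+TRBV13-2 at 0.067, TRBV13-1 at 0.068 and TRBV16 at 0.090, among 17 calls that reached 0.161. The order differed between the libraries taken singly. TRBV13-1 ranked first in WT and second in Btla-/-, the joint call second and 6th, and TRBV16 7th and first. TRBV2, with its identical coding end, ranked 7th with both libraries joined, 3rd in WT and 11th in Btla-/-. The distance between TRBV5 in WT and TRBV5 in Btla-/- was 0.107, while distances from TRBV5 to other calls within a single library ran from 0.097 to 0.233 in WT and from 0.070 to 0.172 in Btla-/-. Counting error raises such distances, more so for calls with fewer chains, and by how much was not estimated.

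An alpha chain was recovered in 134 of 309 WT TRBV5 cells (43.4% [37.8 to 49.1%]) and in 128 of 371 Btla-/- TRBV5 cells (34.5% [29.7 to 39.6%]). Cells with a TRB chain of another V gene and none of TRBV5 gave 41.6% in WT and 34.6% in Btla-/-. The lower recovery in the Btla-/- library was thus found in both kinds of cells. The pairing rests on the 148 WT and 135 Btla-/- TRA chains of TRBV5 cells. TRAV genes were grouped into subgroups by number, because nearly identical copies within a subgroup can be exchanged by the annotation.

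The alpha chains of TRBV5 cells came from many TRAV subgroups, 14 in WT and 19 in Btla-/-, and TRAV6 led in both. TRAV6 supplied 15.5% of WT chains [10.1 to 22.4%] and 14.8% of Btla-/- chains [9.29 to 21.9%], against 15.98% and 15.51% in cells without TRBV5. TRAV7 came next in WT with 12.8% and stood behind TRAV13 in Btla-/- with 11.1%, against 12.7% and 15.3%. TRAV13 supplied 10.8% and 11.9%, against 10.3% and 10.8%. TRAV12 supplied 10.8% in WT and 6.67% in Btla-/- [3.09 to 12.3%], against 11.0% and 11.4%. Each of these was a leading partner in WT or Btla-/-, and the TRBV5 intervals held the shares of the other cells in both libraries.

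TRAV16 and TRAV10 are described because their shares differed most between the libraries among the 9 subgroups that reached 5% in a library. Each reached 5% only in the library where it was high, so a difference was built into the choice and the values are a description. TRAV16 was found in 14 of 148 WT chains (9.46% [5.27 to 15.4%]), 2.12 times its share in other cells, and in 6 of 135 Btla-/- chains (4.44% [1.65 to 9.42%]), 1.53 times that share. In cells without TRBV5 the TRAV16 share was also lower in Btla-/-, at 2.90% [2.16 to 3.81%] against 4.46% [3.52 to 5.55%] in WT. The lower TRAV16 share in Btla-/- was thus not particular to TRBV5 cells. TRAV10 was found in 2 of 148 WT chains (1.35% [0.16 to 4.80%]), 0.47 times its share in other cells, and in 10 of 135 Btla-/- chains (7.41% [3.61 to 13.2%]), 3.04 times that share. In cells without TRBV5 the TRAV10 share was 2.85% in WT and 2.44% in Btla-/-. Against other cells, 2 of 9 subgroups passed 1.5-fold in WT and 4 of 9 in Btla-/-, where TRAV12 at 0.58 and TRAV14 at 0.60 were the others. Over all V genes 30.9% of such pairs passed in WT and 29.6% in Btla-/-. Between the libraries 3 of 9 subgroups passed 1.5-fold in TRBV5 cells, where 43.2% of all pairs did. Since the 9 subgroups were chosen on TRBV5 cells, nothing is read from these counts. The TRAV16 and TRAV10 intervals of the libraries overlapped. TRAJ1 to TRAJ30, the part of the TRAJ genes nearest to the constant gene, supplied 53.4% of alpha chains in WT TRBV5 cells [45.0 to 61.6%] and 53.3% in Btla-/- TRBV5 cells [44.6 to 62.0%]. In cells without TRBV5 the same share was 47.9% in WT [45.5 to 50.3%] and 58.0% in Btla-/- [55.6 to 60.4%], with intervals that did not overlap. Both shares lay inside the TRBV5 intervals, so no contrast between TRBV5 cells and other cells is read from them.

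**Figure D5:**
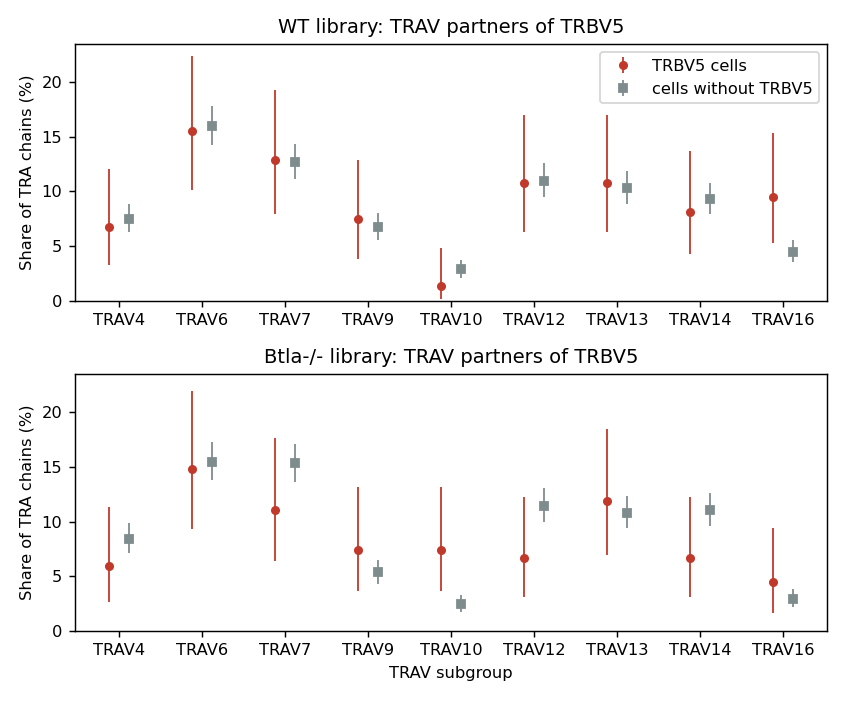
Share of TRA chains (%) from each TRAV subgroup that reached 5% in a library, in TRBV5 cells (circles) and in cells without TRBV5 (squares), for the WT (top) and Btla-/- (bottom) libraries with exact 95% binomial intervals. TRAV6 leads in both, TRAV16 lies above the other cells in WT at 9.46%, and TRAV10 lies above them in Btla-/- at 7.41%.

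TRBV5 contigs were well covered. The median was 15 UMIs per contig in WT (quartiles 10 and 23, range 2 to 177) and 11 in Btla-/- (quartiles 7 and 16, range 1 to 96), against medians of 13 and 10 for other V genes. At least 3 UMIs stood behind 99.7% of WT and 97.3% of Btla-/- TRBV5 contigs. TRBV5 held 7.97% of TRB UMIs in WT and 7.12% in Btla-/-, close to its shares of chains. The median was the same with and without a recovered alpha chain, at 15 UMIs in WT and 11 in Btla-/-. Of the TRBV5 chains, 5.50% in WT [3.24 to 8.66%] and 7.28% in Btla-/- [4.85 to 10.4%] lay in cells with more than 1 TRB chain, against 6.45% and 6.38% of other chains. The libraries had 30 cell barcodes in common, of which 1 in WT and 3 in Btla-/- carried TRBV5.

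TRBV5 chains were diverse at the level of single cells. The 309 WT chains held 301 distinct combinations of J gene and CDR3 nucleotides, and the 371 Btla-/- chains held 357. In WT 7 of them were found in more than 1 cell, covering 15 cells (4.85% [2.74 to 7.88%]), and in Btla-/- 13, covering 27 cells (7.28% [4.85 to 10.4%]). Chains of other V genes were in repeated combinations in 6.94% in WT and 8.79% in Btla-/-. One combination per library reached 3 cells, and these are shown with capitals for the bases between the V and J ends.
WT, 3 cells, TRBJ1-1: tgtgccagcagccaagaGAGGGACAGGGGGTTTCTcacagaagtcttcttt
Btla-/-, 3 cells, TRBJ2-5: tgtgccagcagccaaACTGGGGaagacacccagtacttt
The WT chain carried 18 bases between its V and J ends, and the Btla-/- chain 7. An alpha chain was recovered in more than 1 cell of 1 repeated WT and 2 repeated Btla-/- combinations, and in each of these the cells shared a TRA CDR3.

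Over all V genes the libraries shared 18 pairs of a V gene and a residue sequence, from 4141 WT and 5181 Btla-/- TRB chains. TRBV5 had 300 distinct CDR3 residue sequences in WT and 356 in Btla-/-. The libraries shared 1 TRBV5 CDR3 at the level of residues and 0 at the level of nucleotides. The shared CDR3 had 16 residues, began with CASSP and used TRBJ2-2. Its nucleotide forms are shown because they differ at 1 base, in the proline codon.
WT, 12 UMIs: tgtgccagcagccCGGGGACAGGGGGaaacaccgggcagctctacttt
Btla-/-, 18 UMIs: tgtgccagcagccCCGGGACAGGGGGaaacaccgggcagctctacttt
In both, 13 germline V bases and 22 germline J bases were kept, with 13 bases between them.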

How the data were processed

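The authors ran Cell Ranger 7.2.0 with a GRCm38 V(D)J reference on the 10× Genomics reads, and deposited per assembled contig the gene calls, the CDR3 and the raw counts of reads and UMIs, without normalization. Every deposited contig was assigned to a called cell, high-confidence, full-length and productive. The WT library held 4040 cells, 1862 TRA and 4141 TRB chains from 80347 UMIs, and the Btla-/- library 5077 cells, 1920 TRA and 5181 TRB chains from 75456 UMIs. Tables in which the authors summarised V gene percentages, clones and CDR3 lengths were not used.

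Each productive contig of TRB with the call TRBV5 was a member, and no doublets were removed. Shares have exact 95% binomial intervals, and because PCR and sequencing were of 1 library per genotype these cover counting error only. Germline ends were read from GRCm38 with GENCODE M21 exons, for V ends followed by CAC. They could be read for 15 of the 18 V gene calls with at least 100 chains, and the kept bases were the run equal to the germline from either end. TRBV10, TRBV3 and the joint call TRBV12-2+TRBV13-2 have no such value. The functions for intervals, fold differences and base matching were checked on made-up input, with more chains per V gene than any had here. That check does not show how often counting error passes 1.5-fold at the sizes of these data. The measures of length and distance were not part of it. Python 3.11.15, pandas 2.3.3, numpy 2.4.6, scipy 1.17.1 and matplotlib 3.10.9 were used.

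TRBV5 and the named lists were chosen with earlier results of these data known. Named were all TRBJ genes, the 3 leading TRAV subgroups of each library, and of the subgroups reaching 5% somewhere the 2 whose share differed most between libraries, the V genes next to TRBV5 in share and in the locus, the 3 V genes nearest in TRBJ usage, and repeated or shared CDR3s. Results were recomputed without contigs under 3 UMIs, within cells that had a single chain of each kind, with identical chains collapsed, without barcodes common to the libraries, with the best covered TRB chain of each cell, and with other summaries of length and UMIs.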

Additional observations from a re-analysis of the deposited data

Results flagged for a closer look

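TRAV10 pairing was singled out because TRBV5 cells lay on opposite sides of the other cells in the libraries, past 1.5-fold in each. Its share in TRBV5 cells was 0.47 times that in cells without TRBV5 in WT and 3.04 times in Btla-/-. TRAV10 was among the subgroups considered only because it reached 5% in Btla-/- TRBV5 cells, so the contrast is partly a product of that choice. The values rest on 2 of 148 and 10 of 135 alpha chains, with 1 library per genotype, and the difference between the libraries was not tested.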

How the results depend on the processing

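Of 120 values recomputed under other settings, 110 stayed inside the 95% interval of the share, within 5% of the mean or median or, for the difference in TRBJ1-1 share from the comparison chains, within 1 percentage point, and 10 moved further. With at least 3 UMIs per contig, alpha recovery in TRBV5 cells was 31.8% in WT and 19.4% in Btla-/-. In cells with exactly 1 TRA and 1 TRB chain, CASSQ opened 63.3% of WT chains, TRBJ1-1 was joined to 8.25% and TRBJ2 genes to 68.0% of Btla-/- chains, and the Btla-/- median was 10 UMIs. The mean in place of the median was 18.7 UMIs in WT and 13.3 in Btla-/-, and the median of reads was 5319 and 3388. The TRBV5 share in Btla-/- minus that in WT was -0.30 percentage points in the main setting and -1.14 to -0.35 under the 5 alternatives. These alternatives reuse the same chains, so their common sign is no further evidence of a difference. In each setting the TRBV5 intervals of the libraries overlapped. The sign of the difference between libraries turned under at least 1 alternative for TRBJ1-1, the TRBJ2 cluster, CASSQ, mean length, TRAV6 and TRAV7. The comparison of TRBV5 with TRBV2 was added after seeing the data, and neither at least 3 UMIs nor counting distinct chains once moved its shares out of their intervals. No paired analysis was possible because each genotype has 1 library. The pairing rests on 148 and 135 alpha chains, and the intervals leave out differences between mice and library preparations.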
